A study of Bos taurus with 33 samples.

Results

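The epidermal growth factor (EGF) system was followed at the transcript level in bovine oocytes and in the cumulus cells (CC) that surround them. The 9 genes described were the ligands AREG, EREG, BTC and HBEGF, the receptors EGFR, ERBB2 and ERBB3, the protease ADAM17 and the feedback inhibitor ERRFI1. They were selected by gene symbol, and all 9 were found among the 16279 genes of the oocyte table and the 16244 genes of the CC table.

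EGF-like ligands are made as membrane-bound precursors, and proteases such as ADAM17 cut them free so that they can bind receptors of the ERBB family on the same or neighbouring cells. In the pre-ovulatory follicle the surge of luteinizing hormone (LH) acts on the mural granulosa cells, which release AREG, EREG and BTC. These ligands carry the LH signal through EGFR to the CC, which then expand and make hyaluronan while the oocyte resumes meiosis. ERRFI1 (also known as MIG6) is induced by EGFR signalling and blocks the receptor kinase.

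Each of the 33 pools held either the oocytes or the CC of 4 cumulus-oocyte complexes aspirated from the largest follicle of suckled postpartum Hereford-Angus crossbred cows. All donor cows received gonadotropin-releasing hormone (GnRH) on day -9 and prostaglandin F2α on day -2. Follicles classed as small (at most 11.7 mm) or large (at least 12.7 mm) came from cows without estrus that were given a second GnRH injection on day 0, whereas spontaneous follicles (11.7 to 14.0 mm) came from cows that showed estrus and had no second injection. The classifications therefore differ in diameter, estrus, GnRH and the event from which hours to aspiration were counted, and these cannot be told apart. There were 6 small, 6 large and 4 spontaneous oocyte pools and 6 small, 6 large and 5 spontaneous CC pools. The labels place aspiration about 20 h or about 23 h after GnRH or estrus, depending on the field. Each library thus averages over the complexes of several cows, and the mural granulosa cells, the main source of these ligands after the surge, were not sampled as such.

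Values are CPM, read counts scaled so that every pool has the same total over genes. Depth was 7664375 to 17934916 reads per oocyte pool and 1911600 to 5772431 reads per CC pool, so that 3 reads, the upper limit that a count of 0 allows, were worth 0.167 to 0.391 CPM in oocytes and 0.52 to 1.57 CPM in CC. Such limits cover the error of counting alone, since reads of amplified RNA do not each stand for a molecule. The summed oocyte markers lay between 7497 and 11597 CPM in oocyte pools and between 48.4 and 356 CPM in CC pools for the 8 of 13 markers matched there, where KIT held most of that sum. Cumulus and granulosa cell markers summed to 3548 to 9851 CPM in CC pools and 355 to 875 CPM in oocyte pools. STAR was the one marker of that list that was higher in oocytes, and each of the other 10 retained markers had a mean in oocyte pools of 1.65 to 23.2% of its mean in CC pools.

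A transcript was retained for testing with a minimum of 5 CPM in 4 oocyte or 5 CC pools. In oocytes 4 of the 9 members passed (HBEGF, EGFR, ADAM17 and ERRFI1), and in CC 6 passed (those 4, EREG and ERBB2). AREG, BTC and ERBB3 passed in neither cell type. EREG passed in CC through 2 small, 1 large and 4 spontaneous pools, so its filter rested mostly on the group in which it was high, and its calls against spontaneous pools are given as descriptions.

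The first comparison was between oocytes and CC. AREG, EREG and BTC were nearly missing from oocytes, whereas HBEGF was abundant there. AREG had 0 reads in 15 of the 16 oocyte pools and 7 reads, 0.531 CPM, in spontaneous replicate 3. EREG was likewise at 0 in 15 pools, with 2 reads in that same pool. BTC had a single read over all 16 pools, in spontaneous replicate 4. At these depths none of the 3 could be told from 0 in 15 oocyte pools.

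In CC pools AREG ranged from 0 to 198 CPM (median 0.976), EREG from 0 to 286 CPM (median 1.5) and BTC from 0 to 2.43 CPM (median 0.920). Most CC pools were thus close to the 3-read limit for these ligands, and the high ends of AREG and EREG belonged to a single pool described below.

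HBEGF, a heparin-binding ligand that activates EGFR and ERBB4, was the ligand of the oocyte pools. Small oocyte pools ranged from 691 to 895 CPM (median 784) and large ones from 618 to 863 CPM (median 762). The 4 spontaneous pools held 877, 815, 1031 and 998 CPM. CC pools held 0.463 to 32.3 CPM (median 7.42). Every oocyte pool lay far above every CC pool. On CPM rescaled over the 14980 genes of both tables, the mean was 830 ± 116 CPM in oocytes (SD, n = 16) and 10.2 ± 9.03 CPM in CC (SD, n = 17), an 81.3-fold higher level in oocytes.

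**Figure D1:**
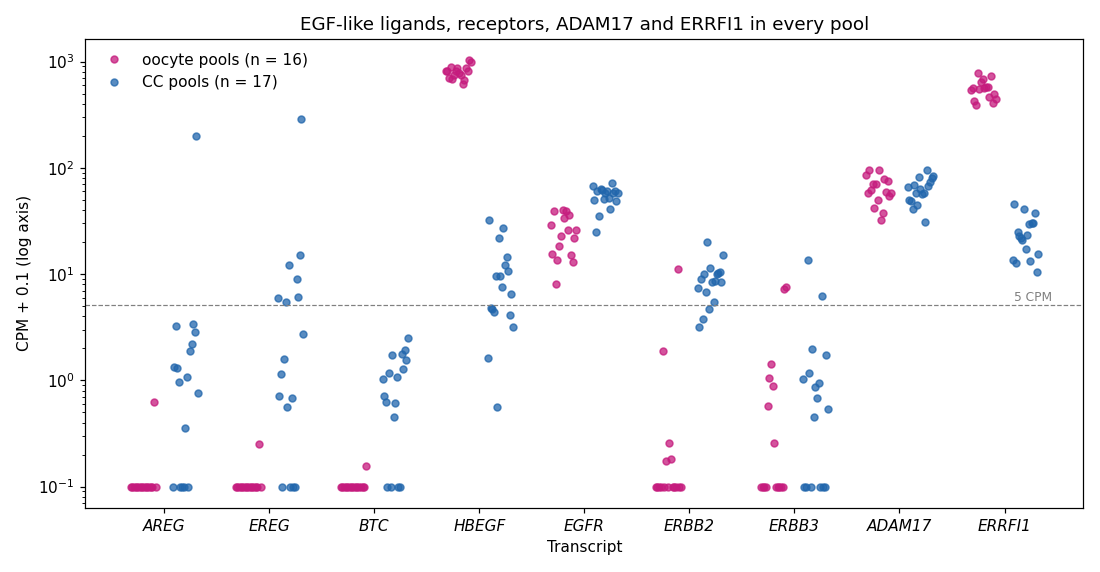
Points are single pools, 16 of oocytes and 17 of CC, with CPM + 0.1 on a log axis for each of the 9 transcripts, so that pools at 0 sit at 0.1. HBEGF and ERRFI1 do not overlap between the cell types, ADAM17 spans a like range in both on this scaling, and AREG and EREG each have 1 CC pool far above the rest. Because CPM does not correct for transcript length, heights are not compared between transcripts. The cell types were scaled separately here, so small differences in height between them depend on the scaling.

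Among the receptors, EGFR, which binds all 4 ligands, was detected in every pool. Oocyte pools ranged from 8.01 to 40.3 CPM (median 24.3) and CC pools from 24.6 to 72.1 CPM (median 57.8). The ranges overlapped, and CC were higher on average. The rescaled mean in oocytes, 25.6 ± 10.9 CPM (SD, n = 16), was 47.1% of the CC mean of 54.2 ± 11.9 CPM (SD, n = 17). On the CPM of each cell type before rescaling, the same share was 1.65 to 23.2% for 10 retained cumulus markers and 1515% for STAR. The part of residual CC in the oocyte values was not tested.

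ERBB2, the family member without a ligand of its own that pairs with the others, was a CC transcript at low level. It ranged from 3.08 to 20.2 CPM in CC (median 8.58), and 11 of 16 oocyte pools had no read. One oocyte pool, spontaneous replicate 2, stood apart with 11.1 CPM (164 reads), and small replicate 5 held 1.79 CPM.

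ERBB3, a neuregulin receptor with an impaired kinase, was sparse in both cell types. It was at 0 in 9 of 16 oocyte pools and reached 7.13 and 7.42 CPM in spontaneous replicates 3 and 4. In CC it was at 0 in 6 of 17 pools and reached 6.06 CPM in spontaneous replicate 1 and 13.4 CPM in small replicate 4. No cell type or classification held ERBB3 in all of its pools.

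ADAM17 is the protease that releases AREG, EREG and HBEGF. On this scaling its CPM was alike in both cell types. It ranged from 32.5 to 96.3 CPM in oocyte pools (median 60.7) and from 30.7 to 95.3 CPM in CC pools (median 62.9). ERRFI1 ranged from 387 to 784 CPM in oocytes (median 554) and from 10.3 to 45.6 CPM in CC (median 22.7). No oocyte pool came near a CC pool for ERRFI1, and its rescaled mean was 23.7-fold higher in oocytes.

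In a limma fit of log2(CPM + 1) adjusted for classification, 5 of the 6 members retained in either cell type differed between oocytes and CC at a Benjamini-Hochberg adjusted p under 0.05. ERBB2 and EREG were retained in CC only, the cell type in which they were higher, so that this count is a description. The background is high, since 41.3% of the 11431 transcripts tested were called higher in CC and 46.0% higher in oocytes. HBEGF was lower in CC by a log2 fold change of -6.63 (SE 0.282, adjusted p = 7.4e-23) and ERRFI1 by -4.60 (SE 0.165, adjusted p = 3.0e-25). Both were among the 36.3% of tested transcripts whose pools did not overlap between cell types. EGFR was higher in CC by 1.15 (SE 0.177, adjusted p = 2.2e-07), ERBB2 by 2.82 (SE 0.270, adjusted p = 3.1e-12) and EREG by 1.89 (SE 0.437, adjusted p = 0.00015). The size for EREG depends on the pseudocount, because nearly all oocyte pools were at 0, and it was 3.93 with a pseudocount of 0.1.

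ADAM17 was not called, with a log2 difference of -0.07 and a 95% confidence interval of -0.37 to 0.23, and its sign turned to 0.35 (adjusted p = 0.031) with median-of-ratios scaling, to 0.26 without mitochondrially encoded genes and to 0.07 in edgeR. Median-of-ratios scaling moved the median of all transcripts from -0.19 to 0.20 at the same time. Oocytes and CC came from the same complexes, but the labels do not say which pools belong together, so the pools were treated as independent. Each value is a share of a pool's reads, and fewer cells of a type cannot be told apart from less RNA per cell.

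Between follicle classifications, the ligands in CC were compared first. AREG and EREG reached their highest levels in spontaneous CC pools, and 1 of these pools accounted for most of the difference in means. AREG lay between 0 and 3.14 CPM in small CC pools (median 1.04) and between 0 and 1.81 CPM in large ones (median 0.127). The 5 spontaneous pools held, in replicate order, 2.09, 3.32, 2.72, 198 and 0.661 CPM. The spontaneous range overlapped both others. The difference in mean CPM had an exact two-sided permutation p of 0.082 against small and 0.017 against large pools.

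EREG lay between 0 and 5.83 CPM in small CC pools (median 1.27) and between 0 and 12.1 CPM in large ones (median 0.232), where 3 of 6 pools had no read. In replicate order, spontaneous pools held 8.98, 6.05, 15.1, 286 and 2.65 CPM. The groups overlapped, through spontaneous replicate 5 in the small group and through large replicate 2 in the large group. EREG was higher by 2.62 on the log2 scale in spontaneous than in small pools (SE 0.845, nominal p = 0.0063, adjusted p = 0.39), and the exact permutation p of the difference in mean CPM was 0.017. Between large and spontaneous pools the difference was 3.21 (SE 0.913, nominal p = 0.0026, adjusted p = 0.549), with an exact permutation p of 0.061. These calls rest on a nominal p of 0.01 or less and did not pass adjustment over all transcripts.

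**Figure D2:**
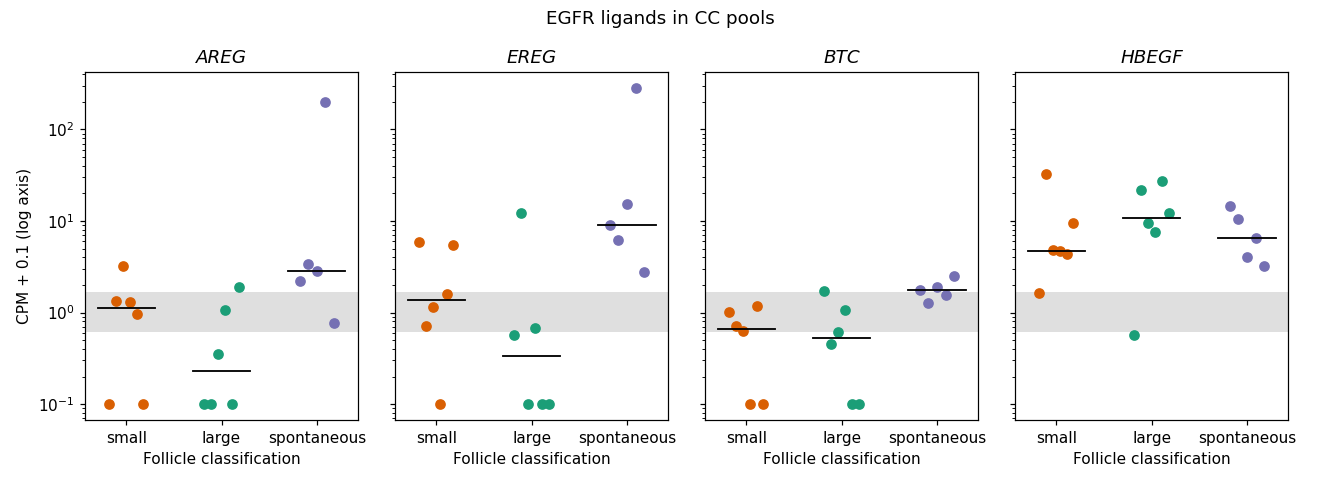
CPM + 0.1 of the 4 ligands in single CC pools on a log axis, by follicle classification (6 small, 6 large, 5 spontaneous), with the group median as a line and the worth of 3 reads, 0.52 to 1.57 CPM over the pools, in grey. Spontaneous replicate 4 is the top point for AREG (198 CPM) and EREG (286 CPM), and BTC pools lie in or near the grey band.

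Spontaneous CC replicate 4 stood apart in these 2 ligands. Its 1092 AREG reads gave a level 59.8-fold above the next highest of the 17 pools, spontaneous replicate 2, and its 1576 EREG reads gave one 19.0-fold above spontaneous replicate 3. EREG was the only retained transcript of this pool more than 10-fold above every other spontaneous pool, a count that was 0 to 5 in the other 4 pools. In this pool 66 of 9712 retained transcripts (0.680%) lay far above the other spontaneous pools, against 88 to 210 in each of the other 4. Transcripts far below were not counted, so this does not measure whether the pool stood apart in general. Its BTC (1.45 CPM), HBEGF (6.35 CPM) and EGFR (49.0 CPM) were within the range of the other CC pools, whereas its ERRFI1 (10.3 CPM) was the lowest of the 17. Cumulus and granulosa cell markers were at their highest there, at a sum of 9851 CPM, and theca markers summed to 1383 CPM, against 289 to 1251 CPM in small, 636 to 936 CPM in large and 639 to 2792 CPM in all spontaneous pools. The part of these cells in the AREG and EREG values was not tested.

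Without that pool, the spontaneous mean was 2.20 ± 1.14 CPM for AREG (SD, n = 4) and 8.19 ± 5.27 CPM for EREG (SD, n = 4). The exact permutation p for AREG was then 0.18 against small and 0.038 against large pools, and for EREG 0.038 and 0.13. The EREG log2 fold change from small to spontaneous pools was 1.59 without it and was no longer called. That call was also lost without a filter on low values (2.62), without small replicate 2 (2.48), 3 (2.54), 4 (2.34) or 5 (2.60) and without spontaneous replicate 3 (2.63). Against large pools EREG stayed past the nominal threshold with each of the 11 pools left out in turn, at 2.18 to 3.79, the lowest being without spontaneous replicate 4. DESeq2 gave no p for EREG there, and the exact permutation p of EREG over all pools was 0.061. Since EREG passed the filter mostly through its spontaneous pools, these fits are descriptions as well.

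Over the 17 CC pools AREG and EREG had a Pearson r of 0.72 and a Spearman rho of 0.31 on log2(CPM + 1), and without spontaneous replicate 4 these were 0.13 and 0.17. The Pearson r thus rested on that one pool. In the bovine RefSeq annotation of ARS-UCD2.0, EPGN, EREG, AREG and BTC follow one another on 1 chromosome with 0 protein-coding genes between neighbours. EPGN, a further EGFR ligand, was at 0 in that pool and did not exceed 1.05 CPM in any CC pool.

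BTC, which activates EGFR and ERBB4, was low in CC, and its highest levels were in spontaneous pools. Small pools had 0 to 1.07 CPM (0 to 5 reads) and large pools 0 to 1.62 CPM (0 to 7 reads). Spontaneous replicates 1 to 5 held 1.67, 1.17, 1.82, 1.45 and 2.43 CPM (6 to 11 reads). All 5 spontaneous pools lay above all 6 small pools. Of the listed genes with a read in these pools, 0.927% did not overlap between the 2 groups in either direction. The exact permutation p was 0.0043 for this comparison, the smallest that 6 against 5 pools allow, and 0.013 against large pools. BTC did not pass the filter, and its levels were near the worth of 3 reads. Spontaneous CC pools had 4535826 to 5510272 reads (median 5126690) and small ones 1911600 to 5772431 (median 3276812), and the part of depth in this result was not tested.

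HBEGF in CC varied widely within each classification and was not called in any comparison. Small pools ranged from 1.53 to 32.3 CPM (median 4.63) and large pools from 0.463 to 27.0 CPM (median 10.8). Spontaneous replicates 1 to 5 held 14.4, 10.5, 3.99, 6.35 and 3.09 CPM, within the range of both other groups. The 95% confidence intervals of its log2 fold changes reached from -0.87 to 1.82 between small and large, -1.07 to 1.22 between small and spontaneous and -1.68 to 0.88 between large and spontaneous pools.

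Counted over the 6 members retained in CC, 2 (EREG and ADAM17) were called higher in spontaneous than in small pools, where 2.28% of 9712 transcripts were called in that direction and 2.38% in either. Since EREG passed the filter mostly through its spontaneous pools, nothing is read from this count. EREG was the 1 member called between large and spontaneous pools, against 1.45% of transcripts in that direction and 1.66% in either, and 0 of 6 were called between small and large pools, against 0.813%. At an unadjusted p under 0.05, limma called 0 of the 6 between small and large pools, beside 388 of 9712 transcripts. There, edgeR and DESeq2 also called 0 of the 6 at the 0.01 threshold. The median log2 fold change of the 6 members from small to spontaneous pools was 0.43, beside 0.16 over all transcripts. All 6 had a positive value there, but HBEGF and ERRFI1 turned negative with median-of-ratios scaling, which brought the median of all transcripts to 0.01.

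**Figure D3:**
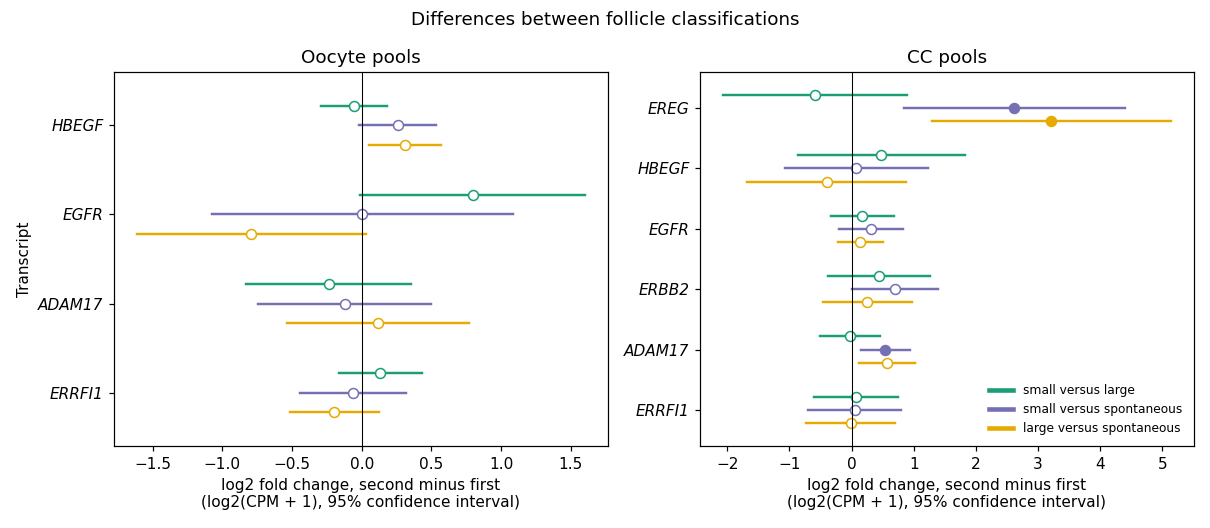
Log2 fold changes of log2(CPM + 1) with 95% confidence intervals from limma, for the 4 members retained in oocytes (left) and the 6 retained in CC (right), the second-named classification minus the first. Filled points passed a nominal p of 0.01: EREG in both comparisons with spontaneous CC pools (2.62 and 3.21) and ADAM17 between small and spontaneous CC pools (0.54).

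ADAM17 was more abundant in spontaneous than in small CC pools. Small pools ranged from 41.0 to 68.2 CPM (median 53.8) and large pools from 30.7 to 81.5 CPM (median 57.7). The spontaneous pools, replicates 1 to 5, held 95.3, 67.7, 73.9, 80.6 and 84.4 CPM. Only spontaneous replicate 2 fell within the range of small pools, and 3 of 5 fell below the highest large pool. The log2 fold change from small to spontaneous pools was 0.54 (SE 0.184, nominal p = 0.0085, adjusted p = 0.418), with 0.0087 as its exact permutation p. Between large and spontaneous pools it was 0.57 (SE 0.217, nominal p = 0.018, adjusted p = 0.624) and not called, with an exact permutation p of 0.022.

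The ADAM17 call against small pools depended on the scaling. It was lost with median-of-ratios scaling, at 0.39, and, at 0.37, without mitochondrially encoded genes, which took 126426 to 440157 CPM in small CC pools and 143284 to 221254 CPM in spontaneous ones. It was also lost in edgeR (0.38), in DESeq2 (0.38) and in one fit of all 3 classifications (0.54). Leaving out single pools ended it without small replicate 2 (0.52), 3 (0.51) or 4 (0.46) and without spontaneous replicate 1 (0.48), 3 (0.57), 4 (0.54) or 5 (0.52). Against large pools, ADAM17 was called only without large replicate 2 (0.69).

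The summed cumulus and granulosa cell markers did not overlap between small and spontaneous pools. The sum was 3548 to 5497 CPM in small, 3945 to 7114 CPM in large and 5815 to 9851 CPM in spontaneous CC pools. INHA and SERPINE2 had the highest means of the 11 retained markers in CC pools, 2262 and 1547 CPM, and so weigh most in it. All 11 retained markers had higher means of log2(CPM + 1) in spontaneous than in small pools, with 0 called by limma. Of all 9712 transcripts, 71.9% were higher in that comparison, so most transcripts shared this direction. Of the 11 markers, INHA and CYP19A1 were called higher in spontaneous than in large pools, where 1.45% of all transcripts were called in that direction. White blood cell markers, of which all 15 were listed and none was at 0 throughout a group, summed to 64.1 to 302 CPM in small, 52.1 to 286 CPM in large and 77.1 to 369 CPM in spontaneous pools. The part of cell makeup in the EREG, BTC and ADAM17 values was not tested.

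EGFR in CC did not pass the threshold in any comparison of classifications. Small pools ranged from 24.6 to 67.8 CPM (median 55.0) and large pools from 40.9 to 62.3 CPM (median 54.9). Values in spontaneous replicates 1 to 5 were 72.1, 58.3, 60.1, 49.0 and 57.3 CPM, so all groups overlapped. The 95% confidence intervals of the log2 fold changes were -0.34 to 0.68 between small and large, -0.21 to 0.83 between small and spontaneous and -0.23 to 0.50 between large and spontaneous pools.

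ERBB2 in CC ranged from 3.08 to 9.84 CPM in small (median 7.06) and from 4.63 to 20.2 CPM in large pools (median 8.49). The 5 spontaneous pools held, in replicate order, 9.82, 10.1, 10.3, 8.35 and 15.0 CPM. The log2 fold change from small to spontaneous pools was 0.69 (SE 0.330, nominal p = 0.0502) and not called, and the exact permutation p was 0.030. Without small replicate 1, 2, 4 or 6 or spontaneous replicate 2, 3 or 5 that exact p was 0.056 to 0.067.

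ERRFI1 in CC ranged from 12.6 to 45.6 CPM in small (median 22.2) and from 13.1 to 40.6 CPM in large pools (median 21.9). In replicate order, spontaneous pools held 29.9, 30.04, 37.4, 10.3 and 15.2 CPM. The groups overlapped almost entirely, and the log2 fold changes lay between -0.02 and 0.07.

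In oocyte pools no member was called between classifications, where 0.655% of 10076 transcripts were called between small and large, 0.774% between small and spontaneous and 0.943% between large and spontaneous pools. Across the 3 comparisons 1 of 12 nominal p-values in limma was under 0.05, that of HBEGF between large and spontaneous pools. Of all 10076 transcripts, 414, 454 and 491 were under 0.05 in limma in the 3 comparisons, in the order above. At the 0.01 threshold edgeR and DESeq2 called 0 of 4 members in each comparison. HBEGF was 1.24-fold higher in spontaneous than in large pools, with a log2 fold change of 0.31 (SE 0.126, nominal p = 0.019, adjusted p = 0.968) and an exact permutation p of 0.019. Against small pools it was 0.26 (SE 0.135, nominal p = 0.066), with an exact permutation p of 0.057. Its groups overlapped in both comparisons.

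EGFR in oocytes was highest on average in large pools. Large pools ranged from 22.7 to 40.3 CPM (median 34.8) and small pools from 8.01 to 39.4 CPM (median 16.7). Spontaneous replicates 1 to 4 held 15.1, 12.8, 21.9 and 25.8 CPM. The log2 fold change was 0.80 from small to large pools (SE 0.395, nominal p = 0.053, exact permutation p = 0.054) and, between large and spontaneous pools, -0.79 (SE 0.401, nominal p = 0.058, exact permutation p = 0.019). Small replicate 3, the pool with the highest EGFR in its group and the fewest reads of the oocyte pools (7664375), affected the first of these, and without it the value was 1.01 (limma, adjusted p = 0.952).

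ADAM17 and ERRFI1 in oocytes differed less between classifications than among pools. ADAM17 means were 69.0 ± 19.5 CPM in small (SD, n = 6), 60.7 ± 25.1 CPM in large (SD, n = 6) and 61.6 ± 8.93 CPM in spontaneous pools (SD, n = 4). For ERRFI1 they were 542 ± 139, 584 ± 76.2 and 519 ± 146 CPM. The log2 fold changes of these 2 transcripts lay between -0.24 and 0.13, and their nominal p-values were 0.22 or more.

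**Figure D4:**
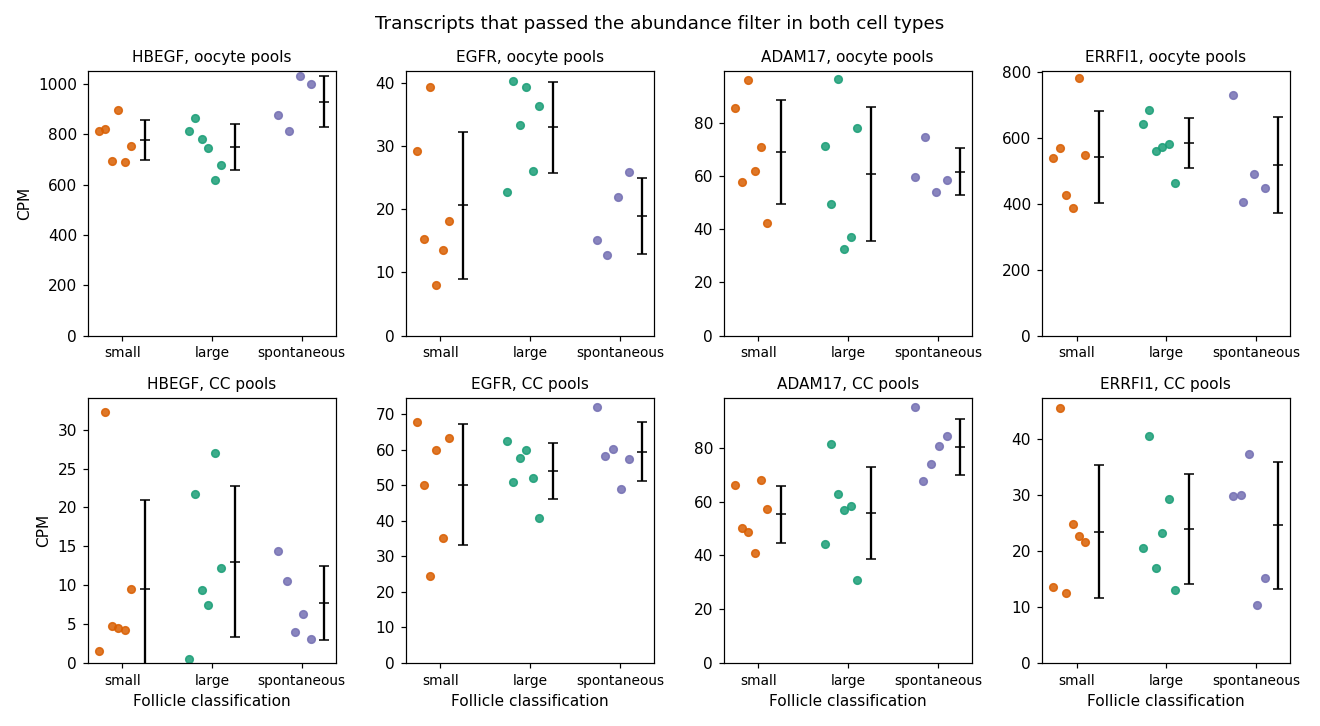
CPM of the 4 members retained in both cell types, in oocyte pools (top) and CC pools (bottom), by follicle classification, with single pools as points and the mean ± SD beside them. Every axis starts at 0, where the lower bar of HBEGF in small CC pools is cut. ADAM17 in CC is the one panel with a called difference, from a mean of 55.3 CPM in small to 80.4 CPM in spontaneous pools.

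Over the 9 members, 54 exact permutation tests were run between classifications, and 9 had p under 0.05 without adjustment. The test was not run over all transcripts, so no share stands beside this count and nothing is read from it. In limma, 830 and 687 of 9712 transcripts had p under 0.05 between small or large and spontaneous CC pools. Between large and spontaneous oocyte pools, 491 of 10076 did. The smallest permutation p that the design allows was 0.0022 for 6 against 6 pools, 0.0043 for 6 against 5 and 0.0095 for 6 against 4. Within 1 cell type the comparisons share pools, so that the results against spontaneous pools are not independent of each other. Nothing in the labels says that pools of a group came from different cows or days, and these p-values measure only the spread between pools.

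Whether a difference between classifications itself differed between oocytes and CC was tested with an interaction term. Of the 6 members, 2 passed a nominal p of 0.01 in the contrast of large with spontaneous follicles, where 1.35% of transcripts passed. The change in EGFR, CC minus oocytes, was 0.93 (SE 0.325, adjusted p = 0.709), with means of 33.0 and 18.9 CPM in large and spontaneous oocyte pools and 54.0 and 59.4 CPM in the CC pools. For EREG it was 3.16 (SE 1.10, adjusted p = 0.709). With 0 reads in 15 of 16 oocyte pools EREG could not fall in oocytes, so that this value repeats its change in CC and is not read as a difference between the cell types. No member passed in the contrasts of small with large (0.866% of transcripts passed) and small with spontaneous follicles (1.28% passed). There, 0 and 2 of 6 members had a nominal p under 0.05 in limma, beside 437 and 673 of 11431 transcripts. With 1 of the 21 pools left out, EREG was called only without CC large replicate 2 or CC spontaneous replicate 1, 2 or 5, and EGFR only without oocyte large replicate 1 or 5, oocyte spontaneous replicate 3 or 4, CC large replicate 1 or 4 or CC spontaneous replicate 4. The differences in these fits were 3.34 to 3.74 for EREG and 0.96 to 1.09 for EGFR. EREG without CC spontaneous replicate 4 was at 2.13, and EGFR was also lost without mitochondrially encoded genes (0.88).

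The rest of the pathway was described by lists of other ligands and the receptor ERBB4, sheddases and their cofactors, adaptors of the RAS-ERK relay, feedback inhibitors, and genes that CC are known to induce in response to EGF-like ligands. Of the other ligands, NRG2, a neuregulin that binds ERBB3 and ERBB4, was the only one retained, in oocytes, at 22.3 ± 14.7 CPM (SD, n = 16) against 0.0390 ± 0.111 CPM in CC (SD, n = 17). It had no read in 15 of 17 CC pools and was not called between classifications of oocytes. EGF, NRG3, NRG4 and ERBB4 were not analysed here.

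Of 5 sheddases and cofactors tested in CC, ADAM9 was the 1 called, between small and spontaneous pools, with a log2 fold change of 0.57 (SE 0.193, adjusted p = 0.418), where 2.38% of all transcripts were called. It held 57.0 to 101.9 CPM in small and 88.6 to 142 CPM in spontaneous pools. ADAM10, which cuts BTC and EGF precursors, was at 143.5 ± 48.9 CPM in oocytes and 143.5 ± 32.9 CPM in CC. RHBDF2, also called iRhom2, a cofactor that brings ADAM17 to the cell surface, was retained in oocytes only, the cell type in which it was higher, and its log2 difference in CC was -3.87 (SE 0.314, adjusted p = 3.2e-14).

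Of 15 adaptors and kinases of the relay tested in CC, MAP2K1, which phosphorylates ERK, was the 1 called, again between small and spontaneous pools, at 0.55 (SE 0.187, adjusted p = 0.418), against the same 2.38% of all transcripts. It held 65.3 to 115 CPM in small and 99.7 to 155 CPM in spontaneous pools. Unlike ADAM17, the ADAM9 and MAP2K1 calls were not checked under other scalings or without single pools. Of all transcripts, 71.9% were higher in spontaneous than in small CC pools. NRAS, a RAS protein, was at 514 ± 90.5 CPM in oocytes (SD, n = 16) and 566 ± 109 CPM in CC (SD, n = 17). None of the 16 feedback inhibitors tested in CC and none of the 17 tested in oocytes was called between classifications in limma. LRIG3 was at 1313 ± 137 CPM in oocytes (SD, n = 16) and CBLB, a ubiquitin ligase, in CC at 179 ± 49.1 CPM (SD, n = 17). Between cell types, 15 of 19 feedback inhibitors differed, 10 of them lower in CC and 5 higher, beside 46.0% and 41.3% of all transcripts, and nothing particular to the list is read from this. Examples were LRIG3 at -4.44 (SE 0.207), SPRY1, a Sprouty inhibitor of receptor signalling, at -3.97 (SE 0.247) and CBL, a ubiquitin ligase for EGFR, at -3.31 (SE 0.162). LRIG1, SPRY2 and SPRY4 went the other way, higher in CC by 2.45, 1.54 and 2.22, of which SPRY4 was retained in CC only.

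The 10 retained CC response genes had reads in every CC pool, and none of them was called between any 2 classifications in limma. PTGS2, the enzyme of prostaglandin synthesis, ranged from 650 to 3053 CPM in small pools, from 153 to 4167 CPM in large pools and from 1180 to 3068 CPM in spontaneous pools. TNFAIP6, which cross-links hyaluronan, ranged from 880 to 3024 CPM over the 17 pools. HAS2, the hyaluronan synthase, ranged from 19.4 to 146 CPM in small, 41.5 to 134 CPM in large and 32.2 to 176 CPM in spontaneous pools, and differed by 0.86 on the log2 scale between small and spontaneous pools (SE 0.457, adjusted p = 0.63). The median log2 fold change of the 10 genes was 0.08 from small to spontaneous pools, beside 0.16 over all transcripts, and 0.0011 from large to spontaneous pools, beside 0.11.

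In spontaneous replicate 4, the pool with the high AREG and EREG, the 10 response genes ranked between first and rank 10 of the 17 CC pools. HAS2 (176 CPM) and PHLDA1 (1512 CPM) were at their highest there, and PTGS2 and JUN had rank 2 and TNFAIP6 rank 3. PTX3, MYC and IER3 had rank 10. These ranks were chosen after their values were seen and were not counted over all transcripts, so nothing is read from them.

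**Figure D5:**
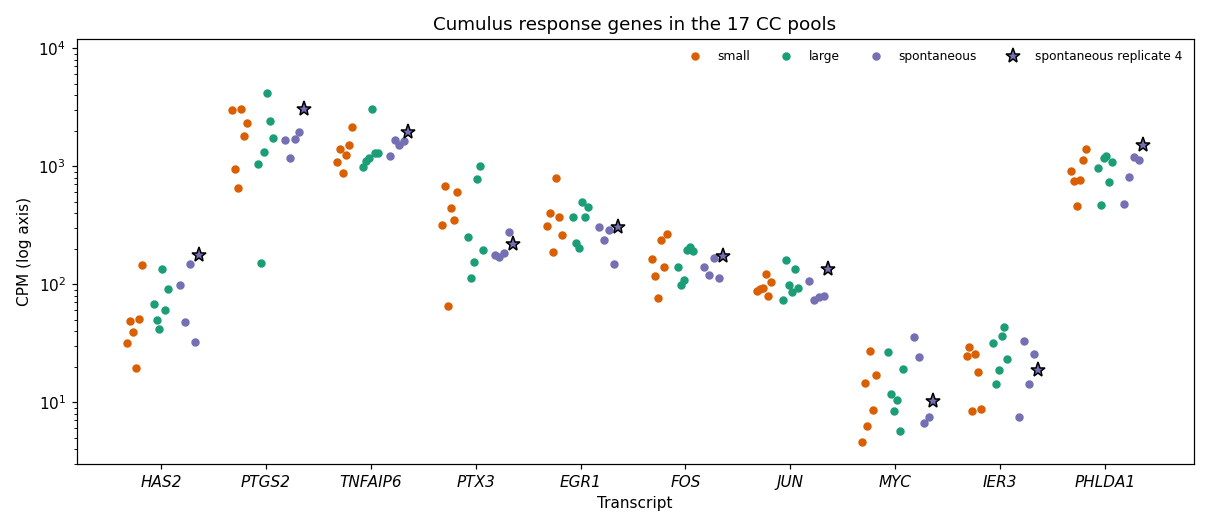
CPM on a log axis of the 10 retained CC response genes in single CC pools by follicle classification, with spontaneous replicate 4 drawn as a star. The 3 classifications overlap for every gene, and the star is the top point for HAS2 (176 CPM) and PHLDA1 (1512 CPM) and for none of the other 8 genes.

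The transcripts most like each retained member were listed by Pearson r of log2(CPM + 1) over the pools of a cell type, as a description in which all transcripts share the depth and makeup of a pool. EREG in CC was most like FGF2, a fibroblast growth factor (r = 0.89, n = 17), and GPAT3, an enzyme of triglyceride synthesis (r = 0.85), and without the 2 pools farthest from its median, spontaneous replicates 4 and 3, these were 0.69 and 0.63. Both were also among the 10 transcripts highest relative to the next pool in spontaneous replicate 4, where GPAT3 was at 282 CPM, 3.18-fold above the next pool. ADAM17 in CC was most like EHBP1 (r = 0.85), AGFG1 (r = 0.84) and TRIM62 (r = 0.83).

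EGFR in CC was most like AGGF1 (r = 0.90) and KIRREL (r = 0.89), and 20 transcripts exceeded r = 0.8 with it, against 5 for ADAM17, 2 for EREG, 1 for ERRFI1 and 0 for HBEGF and ERBB2. ERRFI1 in CC was most like an unnamed gene (r = 0.82), IP6K1 (r = 0.79) and PPP1R37 (r = 0.78), HBEGF like TPMT, EPB41L1 and RGMB (r = 0.73, 0.73 and 0.72) and ERBB2 like PEX13, PGAM4 and MYBL1 (r = 0.73, 0.71 and 0.70).

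In oocytes (n = 16) HBEGF was most like EDEM1, DYNLL1 and ERH (r = 0.80, 0.77 and 0.75) and EGFR like RAB3GAP2, PLSCR3 and OXR1 (r = 0.81, 0.80 and 0.77). ADAM17 was most like LUZP2, TMEM5 and NOC2L (r = 0.77, 0.76 and 0.72). ERRFI1 was most like IGFBP2 (r = 0.87), which encodes a binding protein of insulin-like growth factors, and TRIP13 was also among its closest transcripts (r = 0.77). None of these lists contained another member of the EGF system described here.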

How the data were processed

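RNA of 16 oocyte and 17 CC pools was amplified (Ovation RNA-Seq System V2) and sequenced single-end, and the authors aligned reads with Hisat2 to UMD3.1 and used featureCounts with Ensembl annotation. Deposited values are CPM, scaled by the authors to reads on genes in each of 2 tables, 1 per cell type. Every CPM value gave a whole number of reads within 0.01, so depth was recovered (100% of values). CPM is not corrected for transcript length. Samples were grouped by the labels, with no column left without a sample. A blank gene symbol in 1 table was taken from the row of the same Ensembl identifier in the other (933 in CC, 114 in oocytes).

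Retained transcripts had at least 5 CPM in 4 oocyte pools or in 5 CC pools. Classifications were compared pairwise with limma 3.58.1 (trend, log2(CPM + 1), R 4.3.3), called at a nominal p of 0.01 or less, with Benjamini-Hochberg values over all retained transcripts given as adjusted p. In oocyte comparisons with small pools the call had to hold without small replicate 3 as well. A fold change on this scale understates that of low transcripts. Oocytes and CC were compared on CPM recomputed over the 14980 genes of both tables, with classification as covariate and an adjusted p under 0.05, and a cell type by classification term was tested at a nominal p of 0.01. Each member was also compared by a two-sided exact permutation test of mean CPM (SciPy 1.17.1). The pairwise fits were also run on simulated data, with planted changes far larger than those between classifications for members other than EREG. Recovery of smaller changes was not tested. Alternatives were a pseudocount of 0.1, other filters, median-of-ratios scaling, CPM without mitochondrially encoded genes, 1 fit of all classifications, a replicate block, edgeR 4.0.16 and DESeq2 1.42.0 on recovered reads, and each pool left out. Permutation tests without single pools were added after the values were seen. No 2 libraries of a group agreed within sampling noise.

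The 9 members and the pathway and marker lists were chosen with earlier results of these data known. Named besides the members were transcripts of the pathway lists that were called or had the highest CPM of a list, and for each retained member the 3 transcripts of highest Pearson r, some of which are not reported here. EPGN, the ranks in 1 pool and the genes leading in it were chosen after their values were seen. Gene order came from RefSeq annotation of ARS-UCD2.0, in which 9 of 9 members were matched, and no coordinates or sequences are given.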

Additional observations from a re-analysis of the deposited data

Results flagged for a closer look

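Of 44 groups of 4 to 6 pools examined for a pool far from the rest (Dixon's test at 95%, leaving out groups whose highest pool was at or below the worth of 3 reads), 10 held such a pool, always the highest. The 95% level holds for normally distributed values, and several of these groups were skewed or held mostly zeros. A single pool with reads among pools at 0 passes by construction, so nothing is read from this count. In oocytes these were AREG in spontaneous replicate 3 (0.531 CPM, 7 reads), ERBB2 in small replicate 5 (1.79 CPM) and ERBB2 in spontaneous replicate 2 (11.1 CPM), with the other pools of each group at 0 or next to it at 0. In CC they were AREG and EREG in spontaneous replicate 4 (198.2 and 286.0 CPM), EREG in large replicate 2 (12.1 CPM, the next pool at 0.586), ERBB3 in small replicate 4 (13.4 CPM, the next at 1.07) and ERBB3 in spontaneous replicate 1 (6.06 CPM, the next at 1.63). CC small replicate 2 was far above its group for both HBEGF (32.3 CPM, the next at 9.53) and ERRFI1 (45.6 CPM, the next at 24.9).

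The change from large to spontaneous follicles, CC minus oocytes, passed a nominal p of 0.01 for EREG (3.16 on the log2 scale) and EGFR (0.93). Neither passed adjustment (limma interaction, adjusted p = 0.709 for each), and 1.35% of all transcripts passed the nominal threshold. EGFR stayed past it in 7 of 21 fits with a pool left out, and not without mitochondrially encoded genes. EREG had 0 reads in 15 of 16 oocyte pools, so that its value repeats the change in CC (3.21) and is not read as a difference between the cell types.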

How the results depend on the processing

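No member was called between oocyte classifications or between small and large CC pools under any alternative run, and 5 or 6 of 6 differed between oocytes and CC. ADAM17 between cell types changed sign, to 0.35 with median-of-ratios scaling, 0.26 without mitochondrially encoded genes and 0.066 in edgeR. The 2 calls between small and spontaneous CC pools became 1 with median-of-ratios scaling, without mitochondrially encoded genes, with all 3 classifications in 1 fit, with the replicate block and in edgeR, 0 in DESeq2, which gave no p for EREG, and 0 to 2 with a pool left out. Without a filter they were 2 again, but ADAM17 and BTC, and EREG was lost. The single call between large and spontaneous CC pools became 2 without a filter (BTC and EREG) and 1 to 2 with a pool left out. It became 0 in DESeq2, which again gave no p for EREG. The cell type by classification counts were 0 to 1 (small with spontaneous) and 0 to 1 (large with spontaneous) with a pool left out, and 1 (large with spontaneous) without mitochondrially encoded genes. The cause was not tested.

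Pools with the same number did not deviate together (r = -0.04 to 0.08 between oocyte and CC pools of a classification, -0.13 to 0.14 within oocytes and -0.19 to 0.22 within CC), and 5 of 16, 2 of 14 and 3 of 16 pairs correlated best with their own number. With the replicate block ADAM17 from small to spontaneous CC pools was 0.56 and no longer called, EREG was 2.87, and 3.05 against large pools, and HBEGF from large to spontaneous oocyte pools was 0.21, and no other call of a member changed. CC depth limits AREG, BTC and ERBB3, most of whose pools lay near the worth of 3 reads.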
